A study of Macaca mulatta with 449 samples.

Results

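The genes described here are the 7 that encode subunits of the NMDA receptor in the rhesus macaque, taken by symbol from a table of read counts for 30807 genes. They are GRIN1 (ENSMMUG00000001661), GRIN2A (ENSMMUG00000010142), GRIN2B (ENSMMUG00000019112), GRIN2C (ENSMMUG00000005744), GRIN2D (ENSMMUG00000005983), GRIN3A (ENSMMUG00000016675) and GRIN3B (ENSMMUG00000048135). Each symbol belonged to exactly 1 gene of the table. The study sequenced RNA, after removal of ribosomal RNA, from finely dissected regions of the brains of healthy macaques, and the table holds 51 sub-regions from each of 8 animals. The animals, named here by their label numbers, were 4 young macaques (Rhesus 4, 7, 8 and 10, aged 3.2, 4, 3.8 and 5 years) and 4 mid-aged ones (Rhesus 2, 3, 6 and 11, aged 10, 10, 10 and 9.8 years). Rhesus 2, 3, 7 and 8 were male and Rhesus 4, 6, 10 and 11 female, so each age class held 2 animals of each sex. No animal carried a transgene or received a treatment in these groups, and what differs between groups is the place in the brain, the age and the sex.

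The NMDA receptor is a glutamate-gated cation channel that opens when glutamate binds while the membrane is depolarized, and it lets calcium into the neuron. It is assembled from obligatory GluN1 subunits, encoded by GRIN1, together with GluN2 subunits (GRIN2A to GRIN2D) or GluN3 subunits (GRIN3A and GRIN3B). GluN2 subunits bind glutamate and set how fast the channel closes, how strongly magnesium blocks it and which proteins it binds, while GluN1 and GluN3 bind glycine or D-serine. The receptor is best known for its part in synaptic plasticity in cortex and hippocampus.

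The 51 sub-regions fall into 16 region groups. These are the olfactory bulb (OB), the cerebral cortex (31 sub-regions), the entorhinal and perirhinal cortex (PA), the corpus callosum (CC), thalamus (THA), hypothalamus (HTHA), medulla oblongata (MO), pons (PON), cerebellum (CB, with the cerebellar cortex CBC and the vermis CBV), ventral tegmental area (VTA), substantia nigra (SN), amygdala (AMY), hippocampus (HIP, with the dentate gyrus, CA1 and CA3), striatum (STR, with accumbens nucleus, caudate nucleus and putamen), globus pallidus (GP) and pituitary (PIT). Samples held 7784678 to 31083490 counts (median 10698602). Levels are counts per 1000000 counts (CPM) after library size scaling. Where a region group holds more than 1 sub-region, its counts were added up for each animal. Gene lengths were not used, so levels are compared between regions and never between subunits. All 7 subunits had enough counts to be tested between region groups. GRIN1 never had fewer than 82 counts in a sample, GRIN2B had a median of 45.5 counts, and GRIN3B had a median of 5 counts and none in 47 samples, so its values are the least precise.

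Defining genes of other tissues matched the labels in the groups where they were read. GABRA6 of cerebellar granule cells had a median of 959 CPM in CBC and 0.834 CPM in cortical samples, PRL of the pituitary had a median of 41600 CPM in PIT, and the myelin gene MBP one of 51200 CPM in CC. Some libraries stood apart. The hypothalamus sample of Rhesus 6 held 472 CPM of SLC17A7, a vesicular glutamate transporter of cortical neurons, against at most 4.94 CPM in the other 7 animals. The medulla sample of Rhesus 6 held 109 CPM of the synaptic gene SNAP25, against at least 1720 CPM in the others. The CBC, posterior cingular (PCG), anterior cingular (ACG) and posterior superior frontal (SFG) samples of Rhesus 4 and the cuneus sample of Rhesus 8 correlated with the mean of the other 7 animals at r = 0.834 to 0.879 across genes. Leaving out these samples of Rhesus 6 changed the calls of GRIN1 and GRIN2D in the hypothalamus and of no other subunit in the 2 structures, and the values are given beside those results. The comparison of vermis and cerebellar cortex is given with and without Rhesus 4.

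Against the cortex, 52 of the 105 pairs of a subunit and a region group passed the threshold (FDR < 0.05 and a fold above 2, edgeR's quasi-likelihood test with the animal as a block), 6 of them higher and 46 lower. The 3 GRIN3B calls among the 6 came from few reads. Over all 16829 genes tested, between 8.96% (PA) and 44.6% (PIT) passed the same threshold in a given group, with 5.03% to 21.4% higher and 3.44% to 23.9% lower. The threshold was passed by all 7 subunits in PIT (44.6% of all genes), by 5 in CC (44.1%), GP (34.8%), VTA (28.2%) and CB (25.7%), and by 4 in MO (28.2%), SN (27.9%), PON (24.8%), OB (22.4%) and STR (16.9%). It was passed by 3 subunits in THA (19.6%), by 1 in HTHA (18.6%) and HIP (12.4%), and by none in AMY (9.53%) and PA (8.96%). In bulk tissue, fewer neurons and less RNA per neuron cannot be told apart. The 8 neuronal marker genes (SNAP25, SYT1, STMN2, RBFOX3, ELAVL4, ENO2, SYP and GAP43) had a median log2 fold change (log2FC) against cortex of -4.44 in CC, -4.29 in PIT and -2.12 in GP, and of 0.10 to -1.20 in the other 12 groups.

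**Figure D1:**
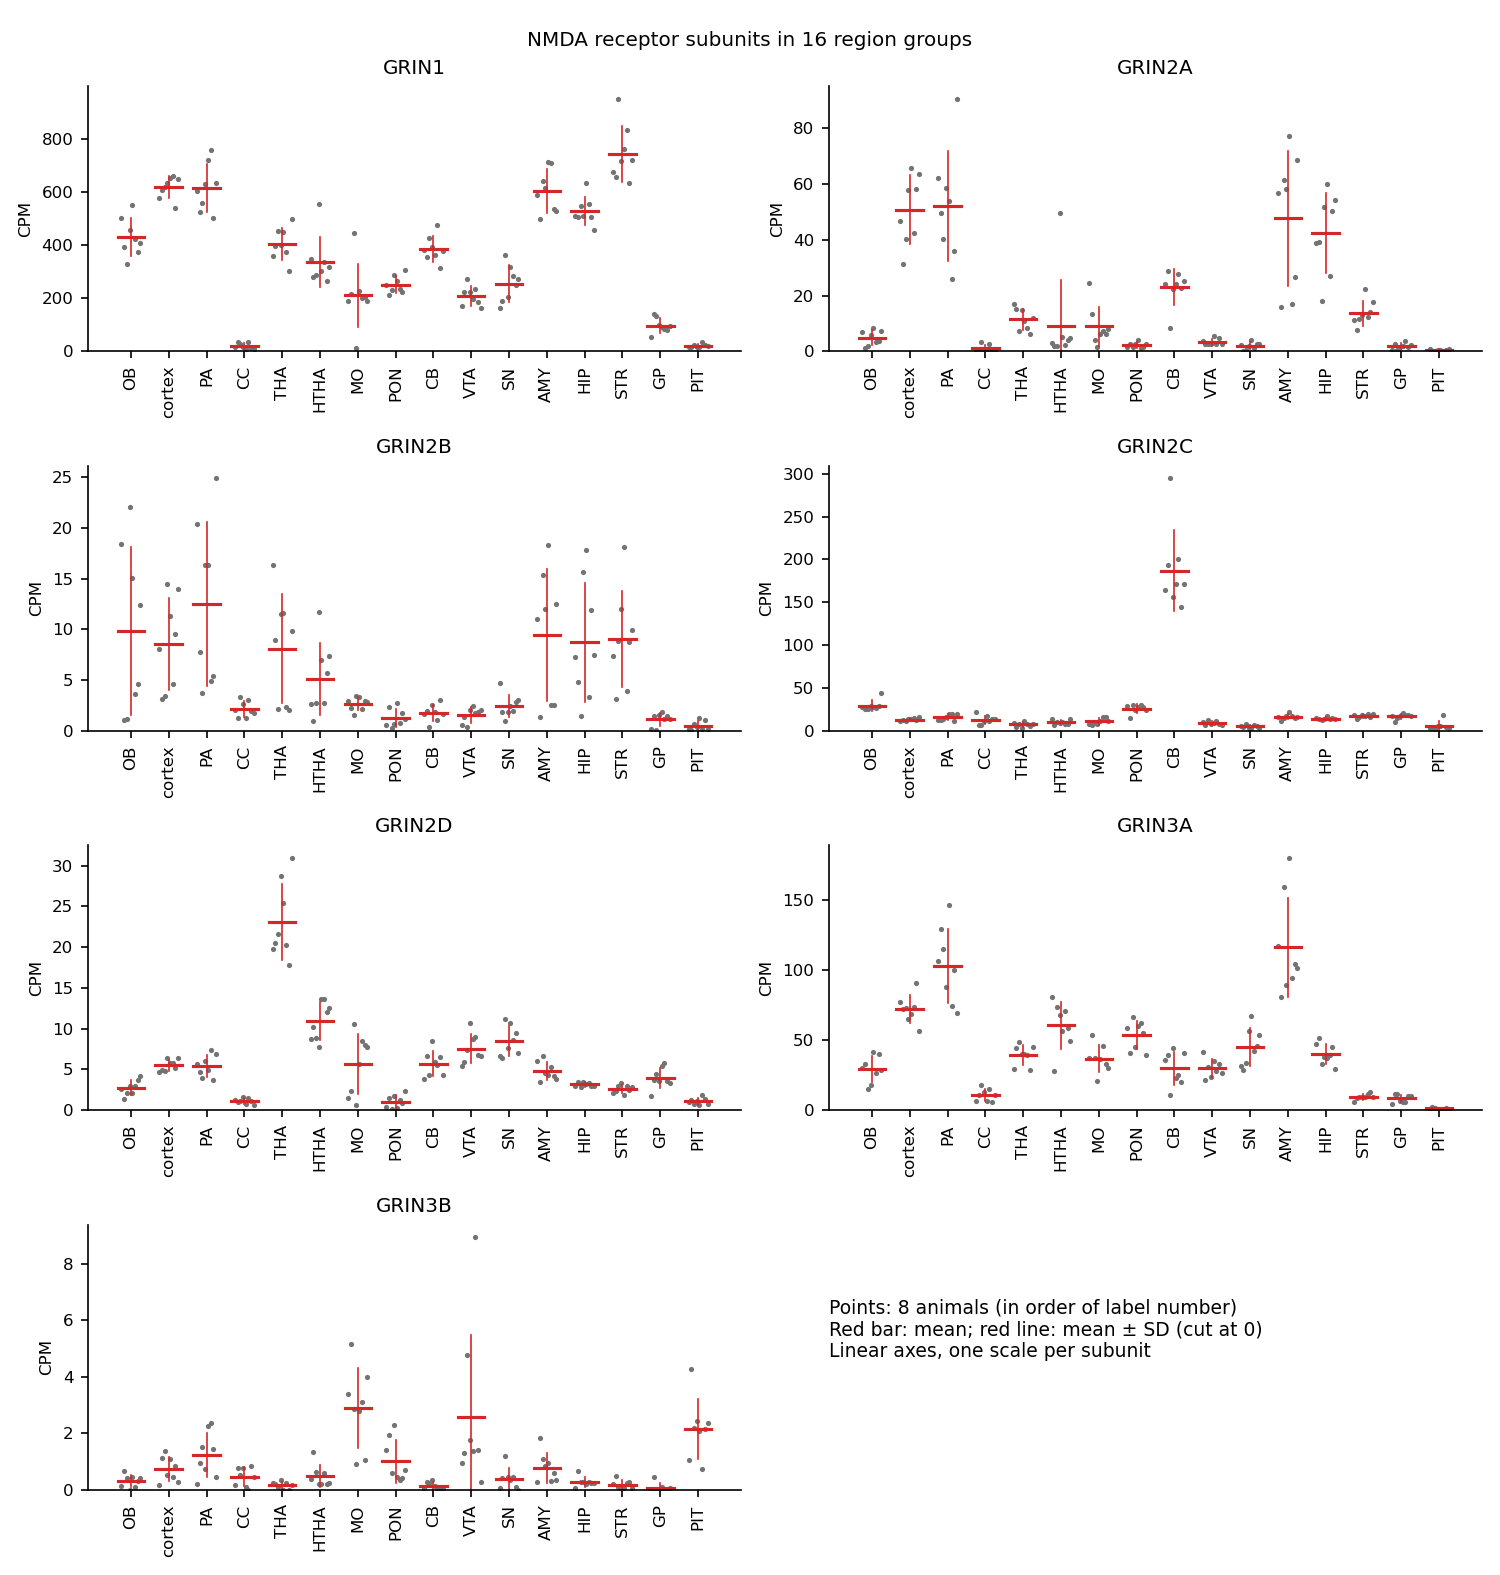
Level of each subunit (CPM, linear axes that start at 0 with a separate scale for each subunit) in the 16 region groups. Grey points are the 8 animals, red bars the mean and red lines the SD. GRIN2C stood at 145 to 295 CPM in the cerebellum and at no more than 44.4 CPM in a sample of any other group, and GRIN2D was highest in the thalamus.

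GRIN1 encodes the subunit that every NMDA receptor needs. It was highest in the striatum, where the 8 animals had 633, 720 and 952 CPM (lowest, median and highest), and nearly as high in cortex (541, 628 and 661 CPM), PA (502, 618 and 758 CPM) and AMY (497, 603 and 712 CPM). All these ranges overlapped, and although all 8 animals were higher in the striatum than in cortex, the difference did not pass (log2FC 0.26 ± 0.20 SE, adjusted p = 0.283). The SE comes from a single fit over all region groups, so it is not the spread of these within-animal differences alone. The lowest groups were CC with 7.76, 17.2 and 34.2 CPM and PIT with 14.3, 19.4 and 33.5 CPM, and no sample of either reached the lowest cortical value.

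GRIN1 was called lower than cortex in 7 groups and higher in none. The log2FC was -4.96 in CC, -4.94 in PIT and -2.69 in GP (96.4 ± 28.1 CPM, SD, n = 8), the groups in which the neuronal markers were lowest. Smaller differences were called in MO (-1.59), VTA (-1.58), PON (-1.29) and SN (-1.29). In PON the 8 neuronal markers had a median log2FC of 0.10, 1.39 above that of GRIN1, but ran from -3.16 to 0.97, a range that includes GRIN1. When the groups were ordered by mean level (STR, cortex, PA, AMY, HIP, OB, THA, CB, HTHA, SN, PON, MO, VTA, GP, PIT, CC), only the steps from VTA to GP and from GP to PIT among the 15 passed an adjusted p of 0.05.

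GRIN1 in the hypothalamus was 555 CPM in Rhesus 6 and 264 to 348 CPM in the other 7 animals. With this library and the medulla of the same animal left out, GRIN1 was called lower in HTHA (log2FC -1.05 ± 0.15, adjusted p = 1.79e-09), which it was not with all animals (-0.87). In the medulla, Rhesus 6 had 10.3 CPM of GRIN1 and the other animals 190 to 445 CPM, and the call there stood without it (-1.45 ± 0.15).

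GRIN2A and GRIN2B encode the GluN2 subunits most used in the forebrain. GluN2A dominates at mature synapses and gives fast-closing channels, and GluN2B prevails early in life and binds CaMKII. GRIN2A was the subunit with the most calls, lower than cortex in 12 of the 15 groups. The cortex held 31.4, 52.5 and 65.7 CPM of GRIN2A in the lowest, median and highest animal, PA 25.8, 51.9 and 90.7 CPM, AMY 16, 57.5 and 77.4 CPM and HIP 18.2, 44.7 and 60.1 CPM. The order of these groups cannot be told, since their ranges overlapped and the steps between neighbours among them did not pass the test.

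Next in the order of GRIN2A came the cerebellum with 8.27, 24.3 and 28.8 CPM, below HIP (step of 0.82 ± 0.30 on the log2 scale, adjusted p = 0.0126) and above STR (0.77 ± 0.31, adjusted p = 0.0212). STR held 7.55, 12.7 and 22.4 CPM, a log2FC of -1.89 against cortex. The lowest groups were PIT (0.146, 0.435 and 0.673 CPM, 2 to 8 counts), CC (0.192, 0.524 and 3.16 CPM), GP (0.392, 1.86 and 3.53 CPM) and SN (0.216, 2.14 and 3.98 CPM). Their log2FC was -7.00, -5.63, -4.77 and -4.77, and no sample of these groups reached the lowest sample of the cortex.

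The other step that passed was from MO to OB (0.93 ± 0.37, adjusted p = 0.0215), so 12 of the 15 did not. GRIN2A was also called lower in PON (-4.53), VTA (-3.94), OB (-3.43), HTHA (-2.72), MO (-2.50), THA (-2.17) and CB (-1.12). The neuronal markers went both ways in these groups except OB, where all were lower (-2.47 to -0.33) but above GRIN2A. They ran from -3.16 to 0.97 in PON, above GRIN2A, and from -3.45 to 1.48 in THA, a range that includes it. In HTHA the 49.8 CPM of Rhesus 6 stood against 2.01 to 5.16 CPM in the other 7 animals. Without it the log2FC there was -3.99 ± 0.30 in place of -2.72.

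GRIN2B was called lower than cortex in 8 groups, namely PIT (log2FC -3.90), GP (-2.83), PON (-2.67), VTA (-2.36), CB (-2.16), CC (-1.83), SN (-1.68) and MO (-1.58). Animals differed widely in the other groups. The cortex ranged from 3.14 CPM in Rhesus 3 over a median of 8.77 CPM to 14.5 CPM in Rhesus 6, OB from 1.10 over 8.49 to 22.1 CPM, PA from 3.69 over 12.1 to 24.9 CPM and THA from 2.03 over 9.41 to 16.3 CPM. STR (3.15, 8.79 and 18.1 CPM), AMY (1.34, 11.5 and 18.3 CPM) and HIP (1.44, 7.38 and 17.8 CPM) overlapped with all of them. None of the 15 steps between neighbouring groups passed the test for GRIN2B. The thalamus and the striatum thus differed from cortex in GRIN2A, while the GRIN2B difference there was within the spread (-0.06 ± 0.30 and 0.14 ± 0.28, SE).

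**Figure D2:**
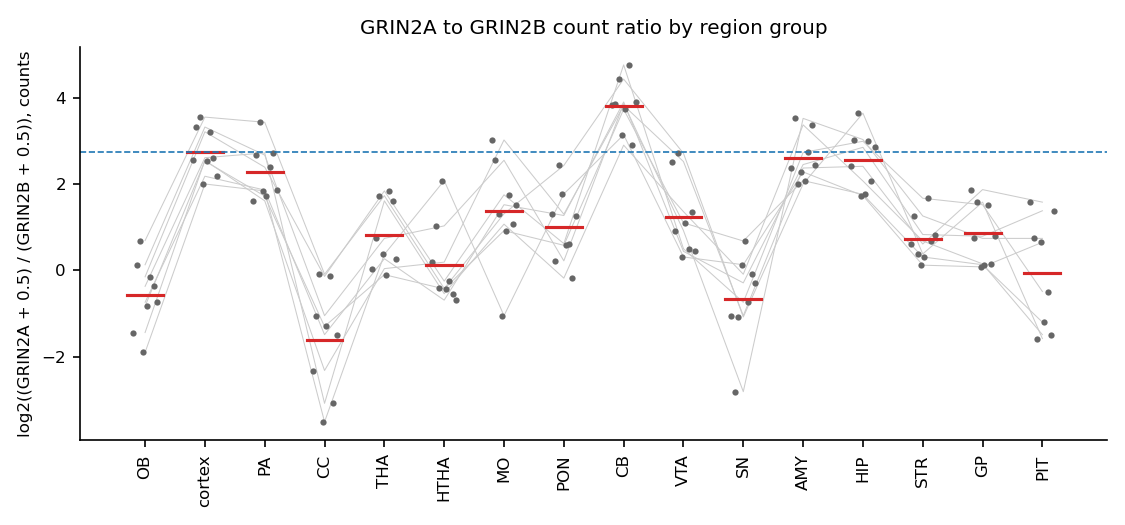
Log2 ratio of GRIN2A to GRIN2B counts (0.5 added to each) in 16 region groups. Points are the 8 animals joined by grey lines, red bars are means, and the dashed line is the cortical mean of 2.74. All 8 animals were above their own cortex in the cerebellum and below it in OB, CC, THA, PON, VTA, SN, STR, GP and PIT.

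The balance of GRIN2A to GRIN2B was compared within animals as a log2 ratio of counts, of which only differences between regions can be read because the genes differ in length. The cortex had a ratio of 2.74 ± 0.56 (SD, n = 8). The cerebellum was the group above it, at 3.82 ± 0.61, and was higher by 1.07 ± 0.48 (SD of the difference) with all 8 animals in that direction. An exact two-sided sign-flip permutation test over the 8 animals gave p = 0.00781, the smallest that 8 pairs allow, and 0.0117 after adjustment over the 15 groups. The same adjusted p went with a lower ratio in all 8 animals in CC (-4.37 ± 0.90), SN (-3.40 ± 1.48), OB (-3.32 ± 0.43), PIT (-2.80 ± 1.62), STR (-2.01 ± 0.54), THA (-1.93 ± 0.60), GP (-1.89 ± 0.64), PON (-1.74 ± 1.02) and VTA (-1.51 ± 0.85). In CC and PIT these ratios rest on few reads, 2 to 31 counts of GRIN2A and 1 to 33 of GRIN2B. Reads were few as well in GP (4 to 44 and 1 to 24), PON (11 to 36 and 2 to 24), SN (2 to 36 and 9 to 75) and VTA (25 to 54 and 4 to 25). GRIN2B also had few in CB (8 to 84, with the lowest level in Rhesus 4), MO (17 to 42) and HTHA (10 to 117).

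HTHA (-2.62 ± 1.22), MO (-1.36 ± 1.07) and PA (-0.46 ± 0.39) were lower in 7 of the 8 animals (exact permutation p = 0.0156, adjusted 0.018). In HTHA the animal that was not lower was Rhesus 6, with a ratio of 2.08 there and 2.00 in its cortex. Without its samples the difference was -3.01 ± 0.59 in HTHA, lower in all 7 animals (SD, exact permutation p = 0.0156, the smallest that 7 animals allow, adjusted 0.0195), and -1.12 ± 0.88 in MO, lower in 6 of 7 (exact permutation p = 0.0312, adjusted 0.0361). AMY (-0.15 ± 0.70) and HIP (-0.18 ± 0.43) did not differ from cortex by this test (exact permutation p = 0.633 and 0.258). With animals not paired, the call for PA was lost (permutation p = 0.139, adjusted 0.161). The olfactory bulb, whose GRIN2B was at the cortical level (log2FC 0.13 ± 0.29) and whose GRIN2A was far below it, had one of the lowest ratios.

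GRIN2C and GRIN2D encode the GluN2 subunits less sensitive to magnesium block. GluN2C is known from cerebellar granule cells and GluN2D from thalamus, brainstem and interneurons. GRIN2C in the cerebellum was 145, 171 and 295 CPM in the lowest, median and highest animal, against 11.0, 12.9 and 15.6 CPM in cortex. The ranges were far apart, and the log2FC was 3.85 ± 0.19 (SE, 14.4-fold). The cerebellum exceeded all 15 other groups by more than 2-fold, and the closest of them was OB, at a log2 distance of 2.68 ± 0.18 (adjusted p = 8.5e-27).

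OB with 25, 28.1 and 44.4 CPM was the other group called higher in GRIN2C (log2FC 1.17 ± 0.17). PON had 15.1, 27.4 and 30.3 CPM and a log2FC of 0.97 ± 0.17, just under the fold required, and exceeded STR, the next in the order (0.57 ± 0.18, adjusted p = 0.00299). GRIN2C was called lower in SN (3.39, 5.02 and 7.59 CPM, log2FC -1.38 ± 0.20) and PIT (2.17, 3.80 and 18.9 CPM, -1.20 ± 0.19). In CC, where GRIN1 was at its lowest, GRIN2C was 6.35, 12.3 and 21.6 CPM, a range that took in the whole cortical one. The oligodendrocyte markers (5 of 6 genes matched) of CC averaged 12.62 on the log2(CPM + 1) scale against 7.49 in cortex, and the astrocyte markers 8.46 against 8.22. Their part in the GRIN2C level was not tested.

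GRIN2D was highest in the thalamus, with 17.8, 21 and 31 CPM against 4.67, 5.50 and 6.43 CPM in cortex, ranges that did not overlap (log2FC 2.08 ± 0.18, 4.22-fold). The thalamus exceeded each other group by more than 2-fold, the closest being HTHA (1.08 ± 0.18, adjusted p = 3.89e-07). HTHA itself held 7.79, 11.2 and 13.7 CPM and was higher than cortex in all 8 animals, with a 1.99-fold difference that just missed the fold required (adjusted p = 1e-06). Without the hypothalamus and medulla of Rhesus 6 it was called (1.05 ± 0.16, adjusted p = 4.5e-09). SN (6.38, 8.17 and 11.2 CPM) and VTA (5.39, 7.09 and 10.7 CPM) followed. GRIN2D was called lower in PON (0.117, 1.08 and 2.31 CPM, log2FC -2.31), PIT (-2.30), CC (-2.25) and STR (1.91, 2.66 and 3.29 CPM, -1.08). The first 3 of these rest on few reads, 1 to 27 counts in PON, 7 to 26 in PIT and 6 to 17 in CC.

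The medulla was uneven in GRIN2D, with 0.652 CPM in Rhesus 6 and 1.53 to 10.6 CPM in the other animals. Its difference from cortex was within the spread with or without Rhesus 6. PON had the lowest mean of GRIN2D, but did not differ from PIT (0.01 ± 0.35, adjusted p = 0.988 with edgeR), nor PIT from CC (0.05 ± 0.34, adjusted p = 0.895 with edgeR).

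GRIN3A and GRIN3B encode the GluN3 subunits, which bind glycine and reduce the calcium permeability of the receptor. GluN3A is known from immature synapses and GluN3B from motor neurons. GRIN3A was highest in AMY (80.6, 103 and 180 CPM) and PA (69.4, 103 and 146 CPM), followed by cortex (56.1, 72.5 and 90.9 CPM). AMY and PA did not differ from each other (0.16 ± 0.19, adjusted p = 0.674), and PA exceeded cortex by 0.51 ± 0.19 on the log2 scale (adjusted p = 0.0279) with overlapping ranges.

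In the striatum, where GRIN1 was highest, GRIN3A was 5.74, 9.30 and 13.2 CPM, a log2FC of -2.91 against cortex with no overlap. PIT (0.804, 1.13 and 1.99 CPM, log2FC -5.87), GP (4.70, 8.45 and 11.8 CPM, -3.09) and CC (5.56, 10.6 and 18.3 CPM, -2.75) were low as well, and the steps between CC, STR and GP did not pass. OB (-1.31), VTA (-1.26) and CB (-1.25) were also called lower. The medulla had 21.1 to 53.8 CPM and a log2FC of -0.97, just short of the fold required (-0.94 without Rhesus 6). HTHA and PON, in contrast, held 60.5 ± 16.7 and 53.5 ± 10.2 CPM (SD, n = 8), and neither reached the fold required.

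GRIN3B was near the limit of detection in most groups. It was highest in MO, with 0.896, 2.98 and 5.15 CPM (11 to 59 counts), in VTA with 0.275, 1.38 and 8.94 CPM, and in PIT with 0.731, 2.16 and 4.27 CPM. These 3 groups were called higher than cortex (0.183, 0.697 and 1.36 CPM), at log2FC 2.08, 1.93 and 1.60. Ranges overlapped with cortex in all of them, and VTA rested on wide differences between animals, with Rhesus 8 highest. GRIN3B was called lower in GP (-3.33), CB (-2.27), THA (-1.99), STR (-1.98), HIP (-1.33) and OB (-1.11), groups in which the highest library had 4 to 18 counts. The OB call was lost without Rhesus 4, 6, 7 or 10 (adjusted p = 0.0718, 0.0536, 0.0518 and 0.0608). None of the 15 steps between neighbouring groups passed the test for GRIN3B. In MO, the call stood without Rhesus 6 (log2FC 2.18 ± 0.28).

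**Figure D3:**
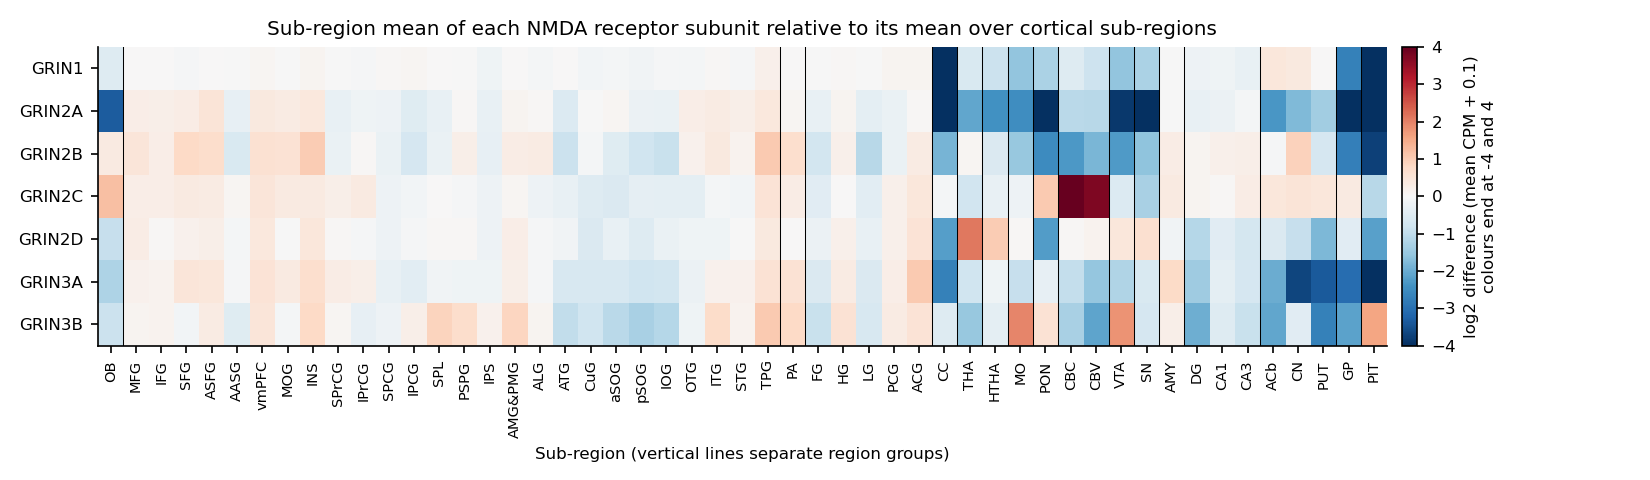
Mean level of each subunit in 51 sub-regions (columns, grouped as in the text) relative to its own mean over the 31 cortical sub-regions, as a log2 difference after adding 0.1 CPM. Red is higher and blue lower, and colours end at -4 and 4. GRIN2C stands out in CBC and CBV, GRIN2D in THA and GRIN3B in MO, VTA and PIT, while GRIN1 is nearly uniform across cortical columns.

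Across the 51 sub-regions taken singly, all 7 subunits differed (F test over sub-regions with the animal as a block, the largest adjusted p being 9.49e-34 for GRIN2B), as did 99.8% of the 17121 genes tested. The share of the variance of log2 CPM that lay between sub-regions was 92.6% for GRIN3A, 91.8% for GRIN1, 88.3% for GRIN2C, 85.9% for GRIN2A, 75.5% for GRIN2D, 46.8% for GRIN3B and 38.4% for GRIN2B, against a median of 57.9% over all genes. GRIN2B had 26.1% of its variance between animals and GRIN3B 16.3%, and the other subunits had at most 3.80%. The highest sub-regions were the accumbens nucleus for GRIN1 (819 ± 175 CPM, SD, n = 8), the anterior superior frontal gyrus for GRIN2A (68.6 ± 14.8 CPM), the temporal polar gyrus for GRIN2B (15.8 ± 10.9 CPM), CBC for GRIN2C (199 ± 86.8 CPM), THA for GRIN2D (22.8 ± 4.65 CPM), the anterior cingular gyrus for GRIN3A (137 ± 30.1 CPM) and MO for GRIN3B (2.80 ± 1.36 CPM).

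Within the cortex, 6 of the 7 subunits differed among the 31 sub-regions, where 77.3% of all genes did. GRIN1 was the exception. Its sub-region means ran from 540 ± 95.9 CPM in the intraparietal sulcus to 687 ± 96.5 CPM in the temporal polar gyrus, a ratio of 1.27, and the F test did not pass (adjusted p = 0.301). GRIN3A had the lowest p of the 7 (adjusted p = 8.66e-80). Its mean was 137 ± 30.1 CPM in the anterior cingular gyrus, where the 8 animals had 98.7, 139 and 186 CPM. The insula (107 ± 14.4 CPM), the temporal polar gyrus (100 ± 16.7 CPM) and the ventromedial prefrontal cortex (97.2 ± 18.4 CPM) followed. It was lowest in the posterior superior occipital gyrus, at 27.3, 35.9 and 51 CPM, with a ratio of 3.60 between the highest and lowest mean and no overlap between these sub-regions.

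**Figure D4:**
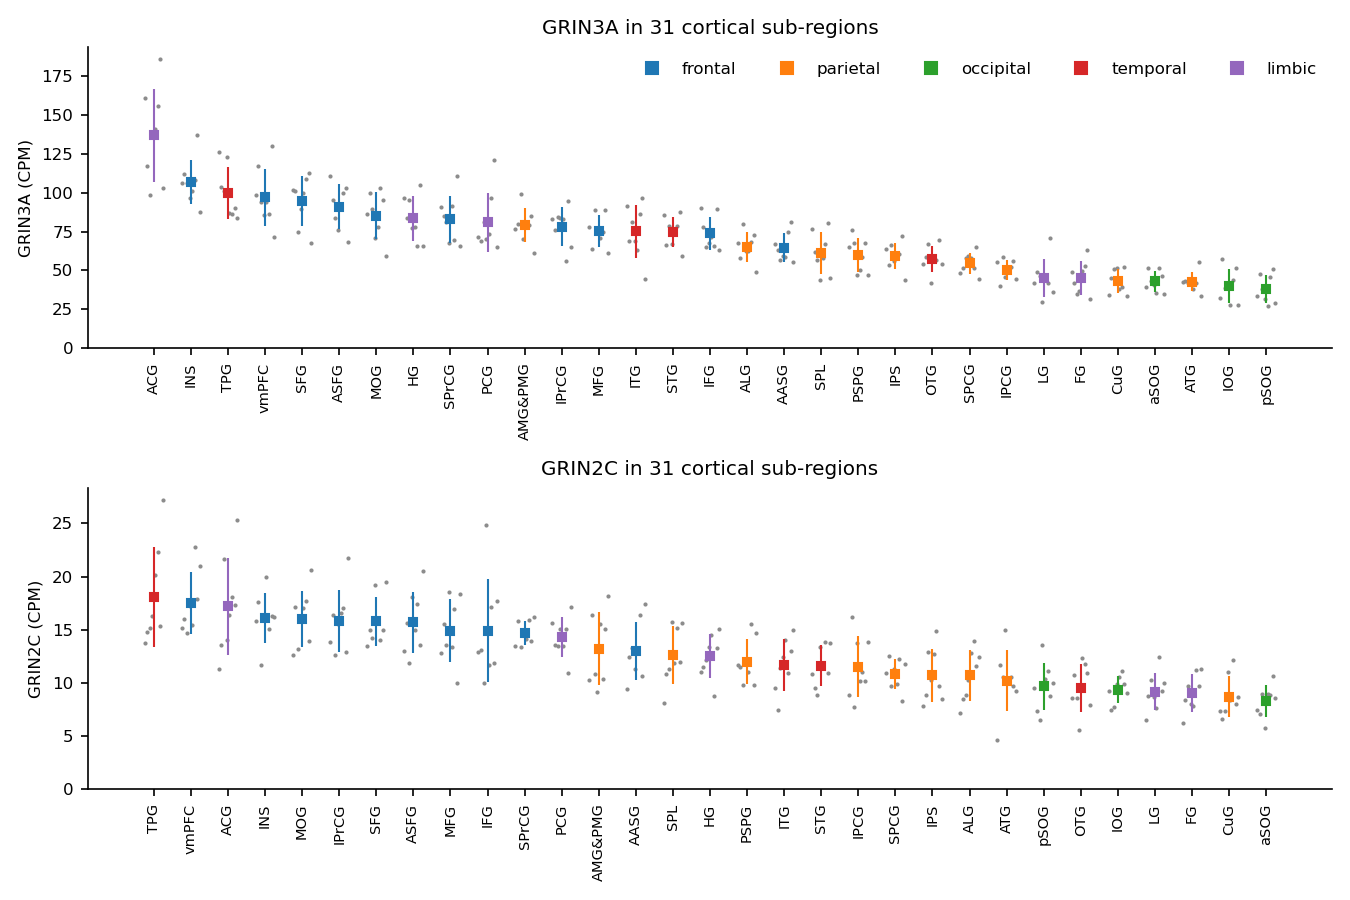
GRIN3A (top) and GRIN2C (bottom) in the 31 cortical sub-regions, in CPM on linear axes, ordered by mean. Grey points are the 8 animals, squares the mean and lines the SD, coloured by lobe. GRIN3A ran from 137 CPM in the anterior cingular gyrus (ACG) to 38.1 CPM in the posterior superior occipital gyrus (pSOG), and the 3 occipital sub-regions were among the 7 lowest in both plots.

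The 5 lobes were then each compared with the mean of the other 4 in the same animals. The occipital lobe held only the anterior superior, posterior superior and inferior occipital gyri. The cuneus was grouped as parietal and the insula as frontal. The limbic lobe held the fusiform, parahippocampal, lingual, posterior cingular and anterior cingular gyri. In the occipital lobe 5 subunits were lower, where 55.4% of all genes were called in either direction and 26% lower. GRIN3A had 30.0, 38.7 and 51.5 CPM there, against 65.7, 83.4 and 109 CPM in the frontal lobe, and the ranges did not overlap. It was lower by a log2FC of -0.86 ± 0.06 in all 8 animals. GRIN2C (-0.46 ± 0.06) and GRIN2D (-0.40 ± 0.07) were lower in all 8 animals too, and GRIN2B (-0.78 ± 0.21) and GRIN3B (-1.63 ± 0.28) in 7 of the 8.

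In the frontal lobe 5 subunits were higher, where 46.4% of all genes were called and 24.3% were higher, each of them in all 8 animals. These were GRIN2B (log2FC 0.67 ± 0.15), GRIN3A (0.49 ± 0.05), GRIN2C (0.45 ± 0.05), GRIN2A (0.26 ± 0.10) and GRIN2D (0.25 ± 0.05). The temporal lobe was higher in 4 subunits, with 25.5% of all genes called and 13.7% higher there. GRIN3B (0.74 ± 0.19), GRIN2B (0.61 ± 0.17), GRIN2A (0.39 ± 0.10) and GRIN3A (0.29 ± 0.05) passed, GRIN2A and GRIN3A in all 8 animals and GRIN3B in only 5. With edgeR the limbic lobe was higher in GRIN3A (0.30 ± 0.05) and the parietal lobe lower in GRIN3A (-0.23 ± 0.05), and no other subunit passed in them, with 16.3% of genes called and 8.78% higher in the former, and 11.3% called and 5.87% lower in the latter. DESeq2 also called GRIN2D higher in the limbic lobe (0.17, adjusted p = 0.0361, against 0.0583 with edgeR). GRIN3A was thus called in all 5 lobes by edgeR and GRIN1 in none. Each lobe also enters the mean that the others are set against, so these contrasts are not independent. With genes kept at a count above 1 in at least 3 samples, however, GRIN1 passed in the occipital lobe (-0.11, adjusted p = 0.0366, against 0.0784, both with edgeR).

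GRIN2B in the frontal lobe ran from 4.10 over 11.0 to 18.7 CPM and in the occipital lobe from 2.16 over 3.49 to 9.63 CPM. Without the animal as a block the frontal call had an adjusted p of 0.183 and the occipital call one of 0.12 for GRIN2B, and 9 in place of 16 calls passed over the 5 lobes, so these lobe calls rest on the comparison within animals.

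In the striatum, 6 subunits had enough counts to be tested, GRIN3B being left out. The accumbens nucleus differed from the putamen in 4 subunits, where 45.9% of all genes differed. GRIN3A had 6.15, 16.5 and 31.3 CPM in the accumbens nucleus, 4.07, 5.26 and 5.72 CPM in the caudate nucleus and 3.30, 6.03 and 13.8 CPM in the putamen. All 8 caudate samples lay below the accumbens range, and the putamen overlapped with both. The accumbens nucleus was higher than the caudate by 1.71 ± 0.30 on the log2 scale and higher than the putamen by 1.36 ± 0.30 (8 and 7 of the 8 animals). GRIN2D was 0.902, 3.76 and 5.2 CPM in the accumbens nucleus and 0.804, 1.34 and 2.68 CPM in the putamen (log2FC 1.27 ± 0.25, higher in 7 of the 8 animals), and GRIN1 was 0.41 ± 0.09 higher in the accumbens.

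GRIN2A went the other way, with 3.48, 8.72 and 16.6 CPM in the accumbens nucleus and 11.4, 16.8 and 31 CPM in the putamen (log2FC -0.98 ± 0.23, lower in 7 of the 8 animals). Caudate nucleus and putamen differed in 3 subunits, all higher in the caudate, where 30.8% of all genes differed and 15.2% were higher. GRIN2B stood at 4.83, 12 and 30.7 CPM in the caudate and 1.47, 2.40 and 16.1 CPM in the putamen, higher in all 8 animals (1.73 ± 0.47, adjusted p = 0.00917, and 0.0523 without the block). GRIN1 (0.36 ± 0.09) and GRIN2D (0.88 ± 0.26) were also higher there. Between accumbens and caudate, GRIN3A was the subunit that passed with edgeR, where 35.9% of genes were called and 18.7% were higher. DESeq2 also called GRIN2A (-0.63, adjusted p = 0.0242) and GRIN2B (-1.35, adjusted p = 0.0359) lower in the accumbens, against 0.0549 and 0.0596 with edgeR. The GRIN2C level was nearly even across the striatum, with means of 17.2 ± 1.20, 17.7 ± 2.60 and 17.1 ± 4.02 CPM in accumbens, caudate and putamen.

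In the hippocampus the dentate gyrus was lower than CA1 in 2 subunits (32.4% of all genes called, 16.5% lower) and lower than CA3 in 1 (33.5% called, 16.5% lower). GRIN3A in the dentate gyrus was 11.3, 21.1 and 55.7 CPM, in CA1 25, 54.3 and 74.7 CPM and in CA3 26.8, 39.6 and 58.3 CPM. The highest dentate sample, from Rhesus 2, lay within the range of CA1. The log2FC was -1.12 ± 0.25 against CA1 and -0.80 ± 0.25 against CA3, with 7 of the 8 animals in that direction in each. GRIN2D was 1.73, 2.19 and 3.19 CPM in the dentate gyrus and 2.90, 3.72 and 5.40 CPM in CA1, lower in all 8 animals (-0.69 ± 0.17). CA1 and CA3 differed in none of the 6 subunits by edgeR or DESeq2, and in 0.0879% of all genes. No subunit had an unadjusted p under 0.05 there, the lowest being 0.0537 for GRIN2C.

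Between vermis and cerebellar cortex none of the 6 subunits tested passed, with 0.954% of all genes called. GRIN3A and GRIN1 had an unadjusted p under 0.05 (edgeR, 0.00144 and 0.0499). GRIN2C was 133, 176 and 407 CPM in the cerebellar cortex and 148, 163 and 201 CPM in the vermis, and its highest value was the library of Rhesus 4 that stood apart. GRIN2A was 3.49 CPM in that library and 17.3 to 29.4 CPM in the other 7 samples of CBC. GRIN3A was 12.8, 36 and 49.1 CPM in the cerebellar cortex and 9.54, 20.0 and 45.7 CPM in the vermis, lower in the vermis in 7 of the 8 animals (log2FC -0.69 ± 0.17, adjusted p = 0.10). It passed without the cerebellar samples of Rhesus 4 (-0.69, adjusted p = 0.0128) and with DESeq2's Wald test (adjusted p = 0.00574).

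The spread between animals was not alike for the 7 subunits. After the mean of each sub-region was taken off, the SD of log2 CPM over all samples was 1.29 for GRIN2B, 1.22 for GRIN3B and 0.73 for GRIN2A, and between 0.32 and 0.45 for the other 4. GRIN2B was on average 1.27 below its sub-region mean in Rhesus 4, 0.98 below in Rhesus 3 and 0.73 below in Rhesus 8, and 0.96, 0.91 and 0.81 above it in Rhesus 6, 7 and 11. GRIN2A had the same signs in these 6 animals. These deviations of GRIN2A and GRIN2B correlated with each other at r = 0.80 over all samples, which share animals and libraries.

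**Figure D5:**
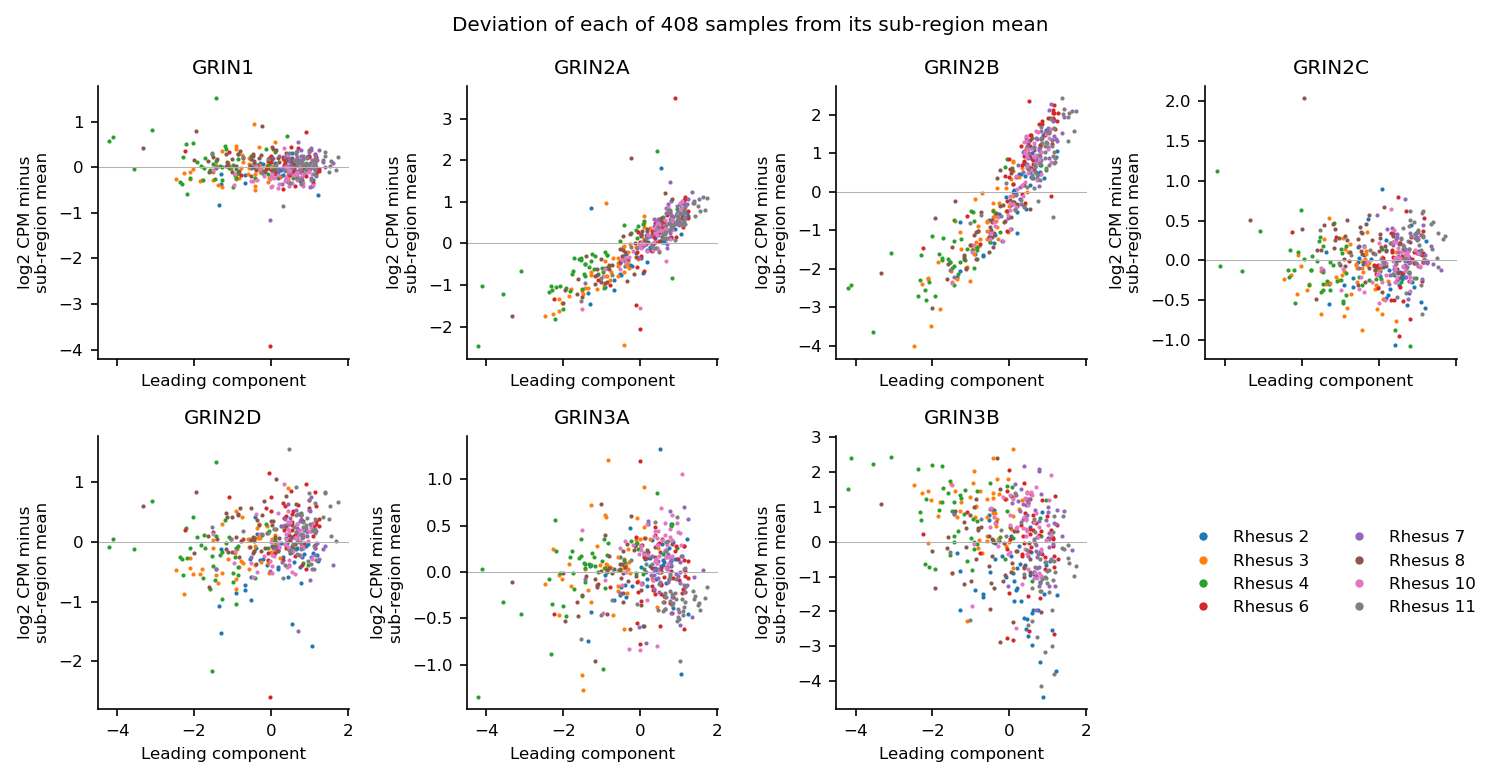
Deviation of each subunit from its sub-region mean (log2 CPM, vertical) against the leading component of the same deviations over all other genes with a mean log2 CPM above 3 (horizontal, in SD units), for all samples of the 51 sub-regions coloured by animal. GRIN2B (r = 0.89) and GRIN2A (r = 0.81) follow a line, and the other subunits correlate less with the component (r between -0.32 and 0.22).

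The same deviations were set against the leading component of the deviations of all other genes. GRIN2B correlated with it at r = 0.89 and GRIN2A at r = 0.81, values reached in size by 3.61% and 8.18% of all genes. The correlation was weaker for GRIN3B (-0.32, a size reached by 52.6% of all genes) and GRIN2D (0.22). It was weakest for GRIN1 (-0.06), GRIN2C (0.02) and GRIN3A (0.12). For GRIN2B and GRIN2A it held in cortical samples (0.91 and 0.90) and in the others (0.86 and 0.72). In the same split GRIN2D had 0.36 and 0.08, and GRIN3B -0.35 and -0.26. The mean of the astrocyte markers, centred in the same way, had r = 0.66 with GRIN2B and 0.48 with GRIN2A. Against the log2 of the total count, GRIN2B had r = 0.24 and GRIN2A r = 0.17. What this component stands for was not tested. It was added as a covariate as an alternative chosen after the data were seen. Between region groups and cortex 52 calls then passed, as without it (61874 in place of 61707 over all genes). Within structures more passed. Over the lobes 24 calls did in place of 16 (36708 in place of 27086 over all genes), among them GRIN2A lower in the occipital lobe (-0.17, adjusted p = 0.00243 with edgeR). In the striatum 11 did in place of 8 (20016 in place of 16703 over all genes), among them GRIN2B lower in the accumbens than in the caudate nucleus (-1.57, adjusted p = 8.21e-07 with edgeR).

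Age stage was compared within each region group (4 mid-aged against 4 young animals, sex as covariate), at FDR < 0.1 and an absolute log2FC above 1. None of the 98 pairs of a subunit and a region group that could be tested passed with edgeR, and 0.0206% of all pairs of a gene and a group did. At an unadjusted p under 0.05 were 11 of the 98 pairs, 5.98% being the share over all genes. DESeq2's Wald test called 2 pairs, GRIN2B in THA and GRIN3A in CB. Over all genes it called 802 pairs of a gene and a group, where edgeR called 50. These 2 and the pairs that follow were named after their values were seen. GRIN3A in the cerebellum was 35.8 to 44.2 CPM in mid-aged and 11.1 to 25.4 CPM in young animals, without overlap (log2FC 1.03 ± 0.22, adjusted p = 0.712 with edgeR, adjusted p = 0.0169 with DESeq2). The young range includes the cerebellar cortex library of Rhesus 4.

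GRIN2A in the thalamus was 11.8 to 16.8 CPM in mid-aged and 6.26 to 10.8 CPM in young animals, again without overlap (0.87 ± 0.18, adjusted p = 0.29 with edgeR). The other pairs without overlap went the opposite way, GRIN3B in PA with 0.194 to 0.962 CPM in mid-aged and 1.45 to 2.35 CPM in young animals (-1.66 ± 0.41, adjusted p = 0.23 with edgeR) and GRIN2D in SN with 6.38 to 7.69 and 8.65 to 11.2 CPM (-0.51 ± 0.20, adjusted p = 0.417 with edgeR). The share of pairs without overlap over all genes was not computed, so these ranges are a description only. GRIN2B in the thalamus was 8.99 to 16.3 CPM in mid-aged and 2.03 to 11.6 CPM in young animals. The highest of these young animals was Rhesus 7. Without Rhesus 7, 4 pairs passed, which were GRIN2B in THA (log2FC 2.42 ± 0.29, adjusted p = 0.00596) and GRIN2A (1.04 ± 0.17), GRIN2B (1.93 ± 0.34) and GRIN3B (-1.62 ± 0.47) in PA, and the number of all gene and group pairs called went from 50 to 979. Rhesus 7 was the young animal with the highest leading component, on average 0.66 SD above 0, while Rhesus 4 was 1.25 and Rhesus 8 0.51 below 0. GRIN2A and GRIN2B follow that component, and its part in their age values was not tested.

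Between the sexes (4 females against 4 males, age stage as covariate) none of the 98 pairs passed either, by edgeR or DESeq2, and 0.106% of all gene and group pairs did with edgeR. At an unadjusted p under 0.05 were 2 pairs, GRIN2A (-1.22 ± 0.53) and GRIN3A (-0.54 ± 0.23) in the medulla, both lower in females, a group that holds the Rhesus 6 library. The share of all pairs at that p was 3.69%. Intervals at 4 animals a group are wide, with an SE of 0.53 on the log2 scale in the first of these.

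Genes that work with the receptor at the synapse were read in the same comparison with cortex. Of 12 postsynaptic scaffold genes, 11 were matched and 10 could be tested, and over the 15 groups 68 of 150 pairs were lower (45.3%) and 1 was higher. Over all genes, 24.4% of the pairs of a gene and a group were called, 12.1% lower and 12.3% higher. The scaffold HOMER1 was lower in CC (6.74 ± 1.39 CPM against 88.2 ± 13.5 CPM in cortex, SD, n = 8, log2FC -3.69 ± 0.23), GP, SN, VTA and MO. By less it was also lower in PON (-2.45), HTHA (-2.03), HIP (-1.31) and CB (-1.13). DLGAP3, a scaffold that joins PSD-95 to SHANK, was lower in CC (-4.50 ± 0.29). The one gene higher was DLG2 (PSD-93) in CC, at 9.67 ± 1.97 against 3.05 ± 1.24 CPM. In STR and THA, where GRIN2A was lower, 1 and 2 of the 10 scaffold genes were, near the 8.13% and 9.84% of all genes lower there. They were SHANK1 in STR (-1.89) and DLG1 and HOMER1 in THA (-1.19 and -2.22).

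Of 8 downstream signalling genes 7 were matched, and 66 of their 105 pairs were lower (62.9%) and 6 higher (5.71%). CAMK2A, the kinase subunit that binds GluN2B, was lower, with a log2FC of -7.46 in PIT, -6.51 in SN and -5.98 in CB, and RASGRF2, a calcium-dependent Ras activator, had a log2FC of -6.57 in CB. In the cerebellum CAMK2A was 36.2 ± 4.25 CPM and in cortex 2270 ± 180 CPM. NOS1, the neuronal nitric oxide synthase coupled to the receptor, was higher in PON (2.25), CB (1.97), STR (1.63) and PA (1.17) and lower in THA (-3.37). Of 7 kinases and phosphatases that act on the receptor, 38 of 105 pairs were lower (36.2%). The 1 higher was PTPN5 (STEP), which dephosphorylates GluN2B, in the striatum, at 1110 ± 117 against 200 ± 16.2 CPM (log2FC 2.47 ± 0.23). Of 6 trafficking genes 5 were matched. Of their 75 pairs 9 were lower (12%) and 3 higher (4.00%), shares near or under those over all genes. LIN7A in CB (1.54) and the adaptor APBA1 in SN (1.52) were among the higher.

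Of 8 genes that set the co-agonists glycine and D-serine, 6 were matched, and SRR and PSPH were not. Over the 6 matched genes, 29 of 90 pairs were higher (32.2%) and 5 lower (5.56%), against 12.3% and 12.1% over all genes. SLC6A9, the glial glycine transporter GlyT1, was 348 CPM in CC, 211 CPM in MO, 199 CPM in VTA and 192 CPM in GP against 20.8 CPM in cortex. Its log2FC was 4.07 ± 0.16, 3.33 ± 0.16, 3.25 ± 0.15 and 3.22 ± 0.15 in these groups. DAO, which degrades D-serine, was 44.4 ± 12.9 CPM in MO, 21.8 ± 5.46 CPM in CB and 0.929 ± 0.479 CPM in cortex (5.63 and 4.60). SLC7A10, a transporter of D-serine and glycine, was lower in PIT (-6.37) and CC (-4.86). The median log2FC of the co-agonist genes was 1.69 in GP and 1.5 in MO and -2.34 in PIT, where the median over all genes was -0.02, 0.01 and 0.03. Without Rhesus 6 the co-agonist median in MO was 1.35, SLC6A9 3.20 and DAO 5.50. The oligodendrocyte markers averaged 11.76 in GP and 11.36 in MO, and 7.49 in cortex, on the log2(CPM + 1) scale, and their part in these values was not tested.

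The genes most like each subunit over the means of the 51 sub-regions were sought by Pearson's r, as a description over points that share animals and in which the cortex supplies 31 of 51. Among the 5 closest to GRIN1 were ANKRD34A, SLC12A5 (both r = 0.96), C1orf70 and PACSIN1 (both 0.95). GRIN2A was closest to CAP2, KIAA1549L (both 0.95), PLXNA2, FBXO34 and CBX6 (all 0.94), and GRIN3A to TTC9B (0.92), SYT13 (0.91), GRIK1 (0.90), GABBR2 (0.89) and ARHGAP35 (0.87). For GRIN2B they were EPHA6 (0.90), GRM5, CELF5, HS2ST1 (all 0.89) and SYT16 (0.88). Among the 5 closest to GRIN2C were PAX6 (0.89), HGFAC (0.88), CRTAM (0.87) and CDH15 (0.85). GRIN2D was closest to CHRNA4 (0.86), GAP43 (0.82), CACNA1G, CPNE7 and SPATA20 (all 0.78). The 5 for GRIN3B were SDK1, NOS2 (both 0.73), THBD (0.69), PHLDA2 and DBH (both 0.67). Among the subunits themselves, GRIN1 and GRIN2A were the most alike (0.84), and GRIN2C had at most 0.15 with any other.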

How the data were processed

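RNA-seq counts of 51 sub-regions of 8 macaques were analysed, and 8 midbrain and 33 ATAC-seq samples are not analysed here. Per the submitters' notes and the study's methods, the authors trimmed the reads of samples with poor read quality with Trim Galore 0.4.4, aligned reads with HISAT2 2.0.5 and deposited raw counts per gene from HTSeq 0.6.1 on the rhesus annotation of Mmul 8.0.1. Strand and overlap settings are not given in the sources used here. Symbols were known for 17572 genes, and 92 of 107 listed genes matched 1 gene. The members and lists were chosen with earlier results of these data known. Samples were grouped by their labels, and each replicate is a separate animal.

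Counts of groups with several sub-regions were summed within animals. edgeR 4.0.16 (R 4.3.3) filtered low counts with filterByExpr, scaled with TMM and ran quasi-likelihood tests over all genes with Benjamini-Hochberg adjustment (FDR). SE is the absolute log2FC divided by the square root of F. Calls needed FDR < 0.05 (and an absolute log2FC above 1 between region groups), or FDR < 0.1 and an absolute log2FC above 1 for age and sex. The animal was a block, since same-numbered samples are 1 animal (median correlation of their deviations 0.39, against -0.04 between animals). Ratios used exact sign-flip permutation tests. Neighbouring steps are adjusted over genes within a pair of groups. Besides the 7 subunits, the text names for each list and group at most the 2 highest and 2 lowest called genes that differed alike in all 8 animals at 1 CPM or more, and the 5 most similar genes. DESeq2 1.42.0, other scaling and filters, no block and leaving out animals were alternatives. The scripts were tested on simulated data. Some of the genes that the rule on similar patterns selects are not reported here.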

Additional observations from a re-analysis of the deposited data

Results flagged for a closer look

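In 168 sets of 8 animals (each subunit in each region group, and in the sub-regions of striatum, hippocampus and cerebellum), the highest or lowest animal was set against its nearest neighbour by Dixon's test. It stood apart in 21 of them. The test's rate of 1 in 20 assumes independent, normally distributed values. These sets were CPM values, some of GRIN3B with many zeros, and groups overlap with their sub-regions. The number of flags can therefore not be compared with chance.

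Libraries that stood apart as a whole hold 6 of the 21 values. Rhesus 6 had 555 CPM of GRIN1 and 49.8 CPM of GRIN2A in the hypothalamus, where the next animals had 348 and 5.16 CPM. Rhesus 4 had 3.49 CPM of GRIN2A and 407 CPM of GRIN2C in the cerebellar cortex, and with the vermis added 8.27 and 295 CPM in the cerebellum.

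GRIN2C also stood apart at 44.4 CPM in the olfactory bulb and 23.6 CPM in the caudate nucleus of Rhesus 11, at 18.9 CPM in the pituitary of Rhesus 8, and, as the lowest, at 15.1 CPM in the pons of Rhesus 3. GRIN1 was 1030 CPM in the caudate nucleus of Rhesus 4 and 850 CPM in the next animal. GRIN2D was 5.40 CPM in CA1 of Rhesus 3. GRIN3A was 13.8 CPM in the putamen of Rhesus 3 and 55.7 CPM in the dentate gyrus of Rhesus 2, where the next animals had 7.20 and 27.9 CPM.

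GRIN3B supplied 7 values, all of few counts. Rhesus 3 was highest in the hypothalamus (1.34 CPM), hippocampus (0.652 CPM), globus pallidus (0.442 CPM) and caudate nucleus (1.57 CPM), Rhesus 4 in the substantia nigra (1.21 CPM), Rhesus 10 in the accumbens nucleus (0.307 CPM) and Rhesus 8 in the putamen (0.12 CPM).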

How the results depend on the processing

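Between region groups and cortex, 52 to 55 of the 105 pairs passed when each animal was left out (61283 to 61998 gene and group pairs over all genes), and an absolute log2FC above 2 left 30 (24016 over all genes). No subunit contrast that was called under any setting changed its direction. Without the animal as a replicate block, so with the pairing ignored, 52 pairs passed between region groups (61012 over all genes). Over the lobes 9 calls did in place of 16 (11014 over all genes). Counted over all genes, 10238 passed in the striatum, 4666 in the hippocampus and 18 in the cerebellum. The ratio of GRIN2A to GRIN2B then passed in 12 groups in place of 13. No paired analysis was possible for age and sex because the animal is the unit there. DESeq2's Wald test called 10 subunit contrasts in the striatum in place of 8 (16938 in place of 16703 over all genes). Over the lobes it called 17 in place of 16 (27821 in place of 27086 over all genes). It called 1 subunit between vermis and cerebellar cortex (260 over all genes), 2 pairs for age (802 over all genes) and none for sex (999 over all genes). Without sex as a covariate, age had 19 calls over all genes. Leaving out each animal gave 0 to 4 subunit pairs for age (6 to 979 over all genes) and 0 to 0 for sex (228 to 2275, the highest without Rhesus 7). Alternatives chosen after the data were seen added the leading component, which gave 5 calls in the hippocampus (12318 over all genes) and 3 in the cerebellum (4528 over all genes). Another left out the cerebellar samples of Rhesus 4, which gave 1 call in the cerebellum (623 over all genes). The causes were not tested. Contrasts near the fold of 2 crossed it under some settings, among them GRIN2D in the hypothalamus (1.00 to 1.05 where called), GRIN2C in the pons (1.00 to 1.06), GRIN3A in the medulla (-1.01 to -1.10) and GRIN2D in the olfactory bulb (-1.02 to -1.06). Low counts limit GRIN3B most, with a median of 5 counts.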
